A study of Caenorhabditis elegans with 55 samples.

Results

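The small RNA cargo of CSR-1a was compared with that of CSR-1b, the isoforms of one *Caenorhabditis elegans* Argonaute. For each small RNA feature, which is a gene, a miRNA or a repeat in sense or antisense orientation, the log2 enrichment of the CSR-1a immunoprecipitate (IP) over its input was set against that of the CSR-1b IP over its input. Features were kept when they were listed in both strains' tables and reached at least 10 estimated reads in at least 2 libraries of each strain. This left 8942 features of the 40396 listed in both tables and of 70241 in the small RNA tables of the whole series, and 6315 of them were antisense to protein-coding genes. Just inside the minimum, with 10 to 12 reads in the second-highest JMC151 library, 1101 features had a median difference (CSR-1a minus CSR-1b log2 enrichment) of -0.01, and just outside it, at 8 to 10 reads, 726 had one of 0.22.

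Argonautes carry a small RNA as a guide and bind RNAs that pair with it. In *C. elegans*, RNA-dependent RNA polymerases make short antisense RNAs on mRNA templates, and CSR-1 loads those made on genes that the germline expresses; it has been linked to the protection of such genes from silencing, in contrast to WAGO Argonautes, many of which silence their targets. CSR-1a differs from CSR-1b by a stretch at the start of the protein that is encoded by exon 1. CSR-1b is the main isoform of the hermaphrodite germline through oogenesis, whereas CSR-1a is known from the germline during spermatogenesis and from the intestine. ALG-3 and ALG-4, which recur below, are Argonautes of spermatogenesis.

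The CSR-1a group was strain JMC151, whose allele *csr-1(tor160)* places a GFP and 3xFLAG tag in exon 1, so that the longer isoform carries it while CSR-1b remains untagged. The CSR-1b group was strain JMC164, which combines *tor67*, the same tag in exon 2, with *mg660[G120*]*, a stop codon in exon 1. JMC164 therefore lacks CSR-1a, whereas JMC151 makes both isoforms. The mRNA of JMC164 was set against that of wild-type N2 (Bristol), which carries neither the tag nor the stop, with 3 libraries a group of L4 larvae kept at 20 °C or 25 °C. For small RNAs each strain had 2 IP and 2 input libraries, 8 of the series' 55 samples, from whole L4 larvae kept at 20 °C, with the tagged protein pulled down through GFP and the lysate's RNA as the input. Nothing in the labels says whether the libraries of a strain came from separate cultures, so p-values measure the spread between libraries, which may be technical. Isoform, strain and tag position differ together between the groups, and so does depth: JMC151 libraries held 1302211 to 1562177 estimated reads and JMC164 libraries 2818397 to 29178965. Isoform, strain and tag position cannot be told apart, and an IP from worms without a tag was not analysed here. Counts from a fit with the JMC164 reads thinned to about the depth of JMC151 are given below. rRNA fragments took 16.7% ± 0.453 of the reads in the CSR-1a IPs and 17.8% ± 2.68 in their inputs, against 1.17% ± 0.899 in the CSR-1b IPs and 4.09% ± 1.85 in theirs (SD, n = 2 each). The counts of calls are also given below with structural RNA left out of the library totals. Libraries of the same kind correlated across the features at r = 0.910 (CSR-1a IPs), 0.910 (their inputs), 0.978 (CSR-1b IPs) and 0.955 (their inputs), a description over features that share libraries.

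The isoforms held different small RNAs. Values are RPM, reads scaled to a library total of 1000000, and enrichment is the log2(RPM + 1) of IP minus input; the difference is CSR-1a enrichment minus CSR-1b enrichment, tested with limma and called at a Benjamini-Hochberg adjusted p under 0.05 and a size of at least 1. Of the 8942 features, 1000 were higher with CSR-1a (11.2%) and 1817 were lower (20.3%), where over all 20347 features fitted 8.89% were higher and 13.4% lower. Among the 6315 antisense coding features, 743 (11.8%) were higher and 1760 (27.9%) lower. The median difference was 0.21 over the 8942 features (-0.17 with TMM factors), with a median standard error of 0.60, and 4114 features had an unadjusted p under 0.05. Groups that do not overlap were common whether or not a feature passed the test: in 41% of the features both CSR-1a enrichments exceeded both CSR-1b ones, and in 37.1% both lay below, against 38.3% and 28.4% of all features fitted and 35.2% and 48.4% of the antisense coding ones. With trimmed-mean scaling (TMM factors) in place of library totals the median difference shifted by -0.38, and 810 features were higher and 2601 lower; the higher ones then made up 23.7% of all calls, where they made up 35.5% with library totals. With totals taken without structural RNA (rRNA, tRNA, snRNA and snoRNA), 1036 features were higher and 1567 lower, with a median difference of 0.31. With the JMC164 reads thinned to 1500000 a library, near the depth of JMC151, 867 were higher and 1625 lower, with a median of 0.19.

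**Figure D1:**
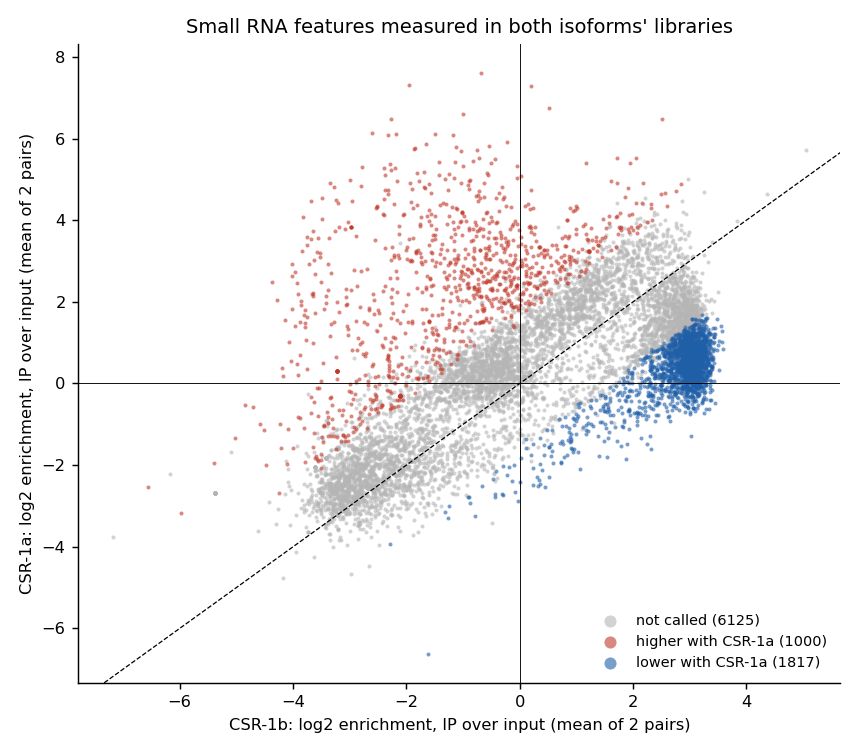
Log2 enrichment of IP over input for the 8942 features with CSR-1a (y axis) and CSR-1b (x axis), each the mean of 2 IP and input pairs; the dashed line marks equal enrichment. The 1000 features higher with CSR-1a spread over a wide range of CSR-1b values, while the 1817 lower ones mostly gather at a CSR-1b enrichment near 3.

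Many features were enriched with both isoforms. By the same thresholds CSR-1a IPs were enriched for 2967 features (33.2%) and CSR-1b IPs for 3814 (42.7%), where 19.2% and 26.8% of all features fitted and 43.8% and 59% of the antisense coding ones were. Both were enriched for 1810, and 1557 of these did not pass the test of the difference. Of the 1817 lower features, 1556 were enriched with CSR-1b alone, and of the 1000 higher ones 680 were enriched with CSR-1a alone. Of the other higher features, 71 were enriched in both IPs and 249 passed the test of enrichment in neither. The enrichments correlated at r = 0.556 over all 8942 features and at r = 0.463 over the antisense coding ones, as a description.

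As a share of all reads, the 1000 higher features made up 37.9% and 40.2% of the CSR-1a IPs and 9.65% and 9.80% of their inputs, but 1.47% and 1.6% of the CSR-1b IPs and 10.0% and 9.09% of theirs. The 1817 lower features made up 4.38% and 3.72% of the CSR-1a IPs and 4.55% and 2.51% of their inputs, but 52.7% and 48.9% of the CSR-1b IPs and 6.24% and 7.46% of theirs. In sum the lower features sat near their input share in the CSR-1a IPs, and the higher ones sat below their input share in the CSR-1b IPs. These shares come from the libraries that chose the calls and are a description. For the higher features the median input level differed by -0.22 (log2, JMC151 minus JMC164), and for the lower ones by -0.99, beside a median gap between the IPs of 3.21 and -3.38.

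Where counts were thin, the minimum itself could let a feature in through the side where it was high. In JMC151, 505 of the 1000 higher features reached the minimum through the IPs and not the inputs, and so did 158 of the 1817 lower ones. When 10 estimated reads were asked of both inputs of each strain, a filter blind to the IPs, 4648 features remained, with 481 higher and 1347 lower. The count of higher features dropped to 561 without JMC164 input replicate 1 and 623 without JMC164 IP replicate 2. The count of lower ones dropped to 548 without JMC164 input replicate 1, 739 and 956 without JMC164 IP replicates 1 and 2, 1041 without JMC164 input replicate 2 and 1138 without JMC151 IP replicate 2; in these fits the lone library is assumed to vary like the other groups. No feature was called in the opposite direction in any of the alternatives.

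By class, small RNAs antisense to coding genes made up 37.0% ± 2.79 of the reads in the CSR-1a IPs and 26.0% ± 8.85 in their inputs, against 82.9% ± 4.73 in the CSR-1b IPs and 32.4% ± 0.196 in theirs (SD, n = 2 each). Reads antisense to pseudogenes took 9.59% ± 0.391 of the CSR-1a IPs and 4.01% ± 0.769 of their inputs, against 1.04% ± 0.102 of the CSR-1b IPs and 4.44% ± 0.273 of theirs. Reads antisense to long intergenic noncoding RNAs took 4.55% ± 1.61 of the CSR-1a IPs and 1.83% ± 0.158 of their inputs, against 0.203% ± 0.0282 of the CSR-1b IPs and 2.32% ± 0.0302 of theirs. For pseudogene and intergenic antisense RNAs both CSR-1a IPs lay above all 4 inputs and both CSR-1b IPs lay below them. With 2 libraries against 2, an exact permutation test of these shares could not pass 0.05, so none is given.

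Counted by feature, 19 of 29 antisense features of long intergenic noncoding RNAs were higher with CSR-1a and 0 lower (median difference 4.22). The leading one, *F19G12.10*, had 3599.9 and 3273 RPM in the CSR-1a IPs, 195 and 118 RPM in their inputs, 28 and 10.7 RPM in the CSR-1b IPs and 219 and 136 RPM in theirs, a difference of 7.73 (SE 0.69, adjusted p = 3.79e-05). Of 230 pseudogene antisense features 47 were higher and 9 lower, and of 105 antisense features of other noncoding RNAs 32 were higher and 5 lower. Transposon antisense features were called 11 times in each direction among 138 (7.97% each), below the 11.2% higher and 20.3% lower of all 8942 features. WBTransposon00000712 held 533 and 789 RPM in the CSR-1a IPs against 1.68 and 0.584 RPM in the CSR-1b IPs, while WBTransposon00000730 was listed at 0 in both CSR-1a IPs against 10.8 and 10.6 RPM in the CSR-1b IPs. Sense fragments of structural RNAs were also called: 12 of 21 rRNA, 15 of 20 snRNA, 11 of 95 tRNA and 7 of 48 snoRNA features were higher with CSR-1a and 0 lower. The shares of higher tRNA features (11.6%) and snoRNA features (14.6%) lay near the 11.2% of all features. In those classes the median enrichment with CSR-1a was 0.31 (rRNA), -0.30 (snRNA), -1.89 (tRNA) and -0.21 (snoRNA), beside -3.23, -2.12, -3.42 and -1.52 with CSR-1b. By the test 3 of 21 rRNA, 1 of 20 snRNA, 8 of 95 tRNA and 2 of 48 snoRNA features were enriched with CSR-1a. Copies of these genes are alike in sequence, so the values of single copies are uncertain.

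Among small RNAs that other Argonautes bind, few miRNAs were called. Of 122 miRNAs 12 were higher with CSR-1a and 0 lower, and those 9.84% lay below the 11.2% of all 8942 features that were higher. The miRNAs had median enrichments of -1.38 with CSR-1a and -2.50 with CSR-1b. cel-miR-77-5p stood at 418 and 181 RPM in the CSR-1a IPs and 95.2 and 16.7 RPM in their inputs, against 5.24 and 3.31 RPM in the CSR-1b IPs and 97.1 and 65.6 RPM in theirs, a difference of 6.70 (SE 0.94, adjusted p = 7.80e-04). Of 51 piRNAs, the guides of the Piwi protein PRG-1, 12 (23.5%) were higher and 0 lower, with a median enrichment of -0.21 with CSR-1a and -2.28 with CSR-1b. The 51 are those of 2357 fitted piRNAs that met the minimum in both strains. All piRNAs took 0.243% ± 0.0155 of the reads in the CSR-1a IPs and 0.339% ± 0.238 in the CSR-1b IPs. In the inputs they took 0.362% ± 0.0788 in JMC151 and 2.04% ± 0.576 in JMC164 (SD, n = 2 each). The part of this input gap in the piRNA calls was not tested. By limma 0 of 51 piRNAs were enriched in either IP, and 3 with CSR-1a and 0 with CSR-1b had an unadjusted p under 0.05. The class that ran most clearly the other way was antisense to snRNA genes, where 4 of 8 features were lower and 0 higher (median difference -2.39), among them *sls-2.11* with 4.85 and 4.16 RPM in the CSR-1a IPs against 81.0 and 88.6 RPM in the CSR-1b IPs.

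The 12 largest called differences in favour of CSR-1a with at least 3 reads in every input fell on 7 coding genes read in antisense, 2 pseudogenes, a transposon, an intergenic RNA and the sense reads of a coding gene. The largest of these belonged to *acdh-1* (WBGene00016943), which encodes the acyl-CoA dehydrogenase that opens the propionate shunt. It had 5203 and 6831 RPM in the CSR-1a IPs and 71.9 and 60.7 RPM in their inputs. In JMC164 it had 9.66 and 4.80 RPM in the CSR-1b IPs and 43.2 and 31.6 RPM in their inputs, which gave a difference of 8.74 (SE 0.57, adjusted p = 1.01e-05). *acdh-1* small RNA was far above input in both CSR-1a IPs and below input in both CSR-1b IPs. *sams-1* (WBGene00008205), the S-adenosylmethionine synthetase, showed the same pattern, with 1382 and 968 RPM in the CSR-1a IPs, 36.1 and 22 RPM in their inputs, 3.07 and 2.16 RPM in the CSR-1b IPs and 25.8 and 21.7 RPM in theirs, a difference of 8.09 (SE 0.54, adjusted p = 1.01e-05). *K06B9.6* (WBGene00044478) was the most abundant of the leading genes, at 21899.6 and 23356 RPM in the CSR-1a IPs and 1258 and 819 RPM in their inputs, against 141 and 56.0 RPM in the CSR-1b IPs and 1156 and 1165 RPM in theirs. Its difference was 8.17 (SE 0.78, adjusted p = 5.72e-05), and no library of one IP came near those of the other.

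The next genes carry sequence names. *Y38E10A.14* (WBGene00012592) had 2487 and 2125 RPM in the CSR-1a IPs and 36.1 and 28.1 RPM in their inputs, against 5.93 and 3.12 RPM in the CSR-1b IPs and 39.0 and 25.2 RPM in theirs, a difference of 8.73 (SE 0.55, adjusted p = 1.01e-05). *H03A11.2* (WBGene00010357) had 608 and 287 RPM in the CSR-1a IPs and 9.22 and 2.67 RPM in their inputs, against 0.720 and 0.195 RPM in the CSR-1b IPs and 5.6 and 6.74 RPM in theirs, a difference of 8.41 (SE 0.74, adjusted p = 3.50e-05). In both, the inputs of the strains lay within a few-fold of each other while the IPs did not come near each other. *H09G03.1* (WBGene00019174) had 4181 and 5038 RPM in the CSR-1a IPs and 158 and 144 RPM in their inputs, against 43.2 and 23.7 RPM in the CSR-1b IPs and 369.5 and 305 RPM in theirs, a difference of 8.26 (SE 0.59, adjusted p = 1.01e-05). The coding gene WBGene00044559 reached 13294 and 9812 RPM in the CSR-1a IPs against 55.2 and 33.1 RPM in the CSR-1b IPs. The pseudogene antisense features WBGene00013644 and WBGene00021018 had differences of 7.98 and 7.91. Sense reads of *clec-212*, a C-type lectin gene, were also among the leading features, at 451 and 401 RPM in the CSR-1a IPs against 1.45 and 1.17 RPM in the CSR-1b IPs; whether an overlapping gene contributes to them was not tested.

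*ZK402.2* (WBGene00022729) and *gfi-1* (WBGene00001581) were at 0 in 1 of the JMC151 inputs. *ZK402.2* stood at 1594 and 1699 RPM in the CSR-1a IPs and 0 and 106 RPM in their inputs, against 13.1 and 12.5 RPM in the CSR-1b IPs and 57.3 and 47.8 RPM in theirs. Its difference was 9.26 (SE 2.0, adjusted p = 0.00762), the widest error among the named genes, and its difference ran from 5.89 to 12.6 when 1 choice was changed or 1 library left out. It lost its call with a pseudocount of 0.1 RPM, without the read filter and in DESeq2 (adjusted p over its alternatives 1.29e-05 to 0.075). *gfi-1* stood at 516 and 515 RPM in the CSR-1a IPs and 0 and 6.01 RPM in their inputs, against 2.59 and 1.27 RPM in the CSR-1b IPs and 5.23 and 2.33 RPM in theirs, a difference of 8.28 (SE 1.01, adjusted p = 3.01e-04).

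**Figure D2:**
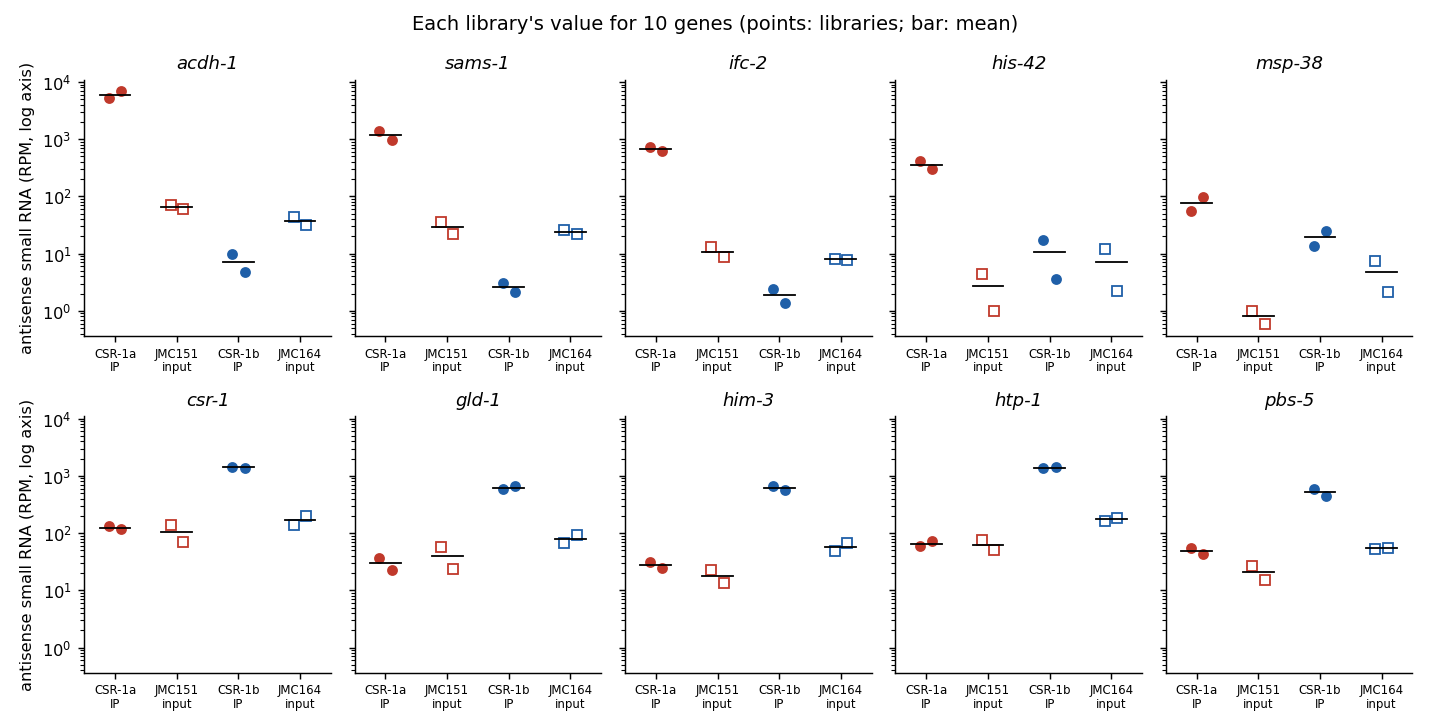
Antisense small RNA level (RPM, log axis) of 10 genes in each of the 8 libraries, with the CSR-1a IPs and JMC151 inputs left of the CSR-1b IPs and JMC164 inputs; points are libraries and bars are means. In the upper row both CSR-1a IPs lie above both CSR-1b IPs, and in the lower row both CSR-1b IPs lie above both CSR-1a IPs.

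Of 12 listed intestinal genes 6 were measured, and 5 of these were higher with CSR-1a and 0 lower, with a median difference of 6.02. In JMC151, 4 of the 6 reached the minimum through the IPs and not the inputs, the side where they were high. With the minimum asked of the inputs 2 remained, of which 1 was higher (median 3.73). The 6 together held 1315 and 1121 RPM in the CSR-1a IPs, 39.2 and 23.4 RPM in their inputs, 152 and 129 RPM in the CSR-1b IPs and 31.7 and 35.1 RPM in theirs. *ifc-2*, an intestinal intermediate filament gene, had 733 and 633 RPM in the CSR-1a IPs against 2.41 and 1.37 RPM in the CSR-1b IPs, a difference of 7.52 (SE 0.52, adjusted p = 1.01e-05). *pept-1*, the intestinal oligopeptide transporter, differed by 6.88, the aspartyl protease genes *asp-1* and *asp-3* by 6.36 and 5.67, and *vha-6*, a proton pump subunit of the apical intestinal membrane, by 5.39. *erm-1*, which organises apical membranes in several epithelia, was enriched with both isoforms and had a difference of -0.07 (SE 0.49, adjusted p = 0.941). Because whole worms were used, more cells of a tissue and more small RNA per cell cannot be told apart. The other somatic lists held few measured genes. Of 2 muscle genes 1 was higher (*lev-11*, tropomyosin, 3.49), and 1 reached the minimum in JMC151 through the IPs and not the inputs. With the minimum asked of the inputs 1 muscle gene remained, with 0 higher (difference 0.60). Among 3 neuronal genes and 7 cuticle collagens 0 were called in either direction by limma. Of these, 1 neuronal gene and 0 collagens had an unadjusted p under 0.05, and DESeq2 called 1 neuronal gene lower and 0 collagens.

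Vitellogenins, the yolk proteins made in the intestine, gave 1 measured feature, *vit-1*. It had 13.4 and 7.04 RPM in the CSR-1a IPs and 0 and 0.668 RPM in their inputs. In JMC164 it had 0.363 and 0.0974 RPM in the CSR-1b IPs and 1.33 and 1.94 RPM in their inputs. It was called higher at 4.16 from few reads and reached the minimum in JMC151 through the IPs and not the inputs. With the minimum asked of the inputs 0 vitellogenin features remained. In the propionate shunt, a pathway that breaks down propionate when vitamin B12 is short, 3 of 5 genes were higher and 0 lower. Besides *acdh-1* these were *alh-8*, at 489 and 282 RPM in the CSR-1a IPs against 63.0 and 61.3 RPM in the CSR-1b IPs and a difference of 3.18, and *hphd-1*, with a difference of 2.79. *ech-6* and *hach-1* differed by 0.41 and -0.89 and did not pass the test. All 5 were enriched with CSR-1a and 3 with CSR-1b.

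Families of detoxification enzymes, lectins and nuclear receptors had more members higher with CSR-1a than lower. By median, the family of *ugt* genes, which code for UDP-glucuronosyltransferases, ranked highest among 67 families with at least 8 measured members: 6 of 10 were higher and 0 lower, with a median of 3.16. Among C-type lectins, 8 of 19 were higher and 1 lower (median 1.80). *clec-150* had 44.6 and 48.7 RPM in the CSR-1a IPs against 0.548 and 0 RPM in the CSR-1b IPs, and *clec-87* ran the other way, with enrichments of 0.67 with CSR-1a and 2.79 with CSR-1b and a difference of -2.12 (SE 0.61, adjusted p = 0.0278) that lost its call in 7 of 20 alternatives (adjusted p 3.27e-05 to 0.148). Among nuclear hormone receptors 12 of 27 were higher and 4 lower (median 1.20), which ranged from *nhr-22* at 4.74 to *nhr-86* at -3.19. The most abundant members, *nhr-229* and *nhr-15*, were depleted from both IPs, with enrichments of -2.85 and -2.61 with CSR-1a and -3.73 and -3.33 with CSR-1b. Without 1 library the higher count ran from 5 to 14 for the receptors and from 7 to 10 for the lectins. In JMC151, 11 of 19 lectins and 9 of 27 receptors reached the minimum through the IPs and not the inputs. With the minimum asked of the inputs, 2 of 5 lectins (median 0.52) and 5 of 17 receptors (median 0.88) were higher.

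Major sperm proteins (MSPs), the cytoskeletal proteins that drive the crawling of nematode sperm, gave 20 measured features, of which 10 were higher with CSR-1a and 0 lower. Summed, they held 1330.2 and 783 RPM in the CSR-1a IPs, 152 and 68.1 RPM in their inputs, 511 and 387 RPM in the CSR-1b IPs and 255 and 239.8 RPM in theirs. The median enrichment was 3.26 with CSR-1a and 0.84 with CSR-1b, and all 20 had both CSR-1a enrichments above both CSR-1b ones, beside 35.2% of all antisense coding features. *msp-38* had 55.5 and 99.1 RPM in the CSR-1a IPs and 1.01 and 0.583 RPM in their inputs, against 13.7 and 25.1 RPM in the CSR-1b IPs and 7.40 and 2.10 RPM in theirs, a difference of 3.46 (SE 0.74, adjusted p = 0.00747). *msp-33*, at 227 and 83.2 RPM in the CSR-1a IPs against 54.2 and 43.8 RPM in the CSR-1b IPs, passed at 2.82 (SE 0.92, adjusted p = 0.0468) but lost its call in 11 of 20 alternatives (adjusted p 0.00188 to 0.183). The *msp* genes are nearly identical in sequence, so their reads may be split between copies. The sums cover the 20 measured features of 28 fitted and 31 named, so reads given to other copies are not in them.

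The small sperm protein families gave 8 of 20 higher and 0 lower (median 1.78), with all 20 enriched with CSR-1a and 2 with CSR-1b. *ssp-36* (3.97) and *ssp-10* (2.13) passed the test, and *ssp-10* kept its call in 16 of 21 alternatives. *ssp-16* was the most abundant, at 695 and 293 RPM in the CSR-1a IPs against 143 and 181 RPM in the CSR-1b IPs. Its difference was 1.96 (SE 0.68, adjusted p = 0.0579). Genes for spermatogenesis gave 5 of 32 higher and 0 lower (median 0.79), or 15.6%, near the 11.8% of antisense coding features that were higher. *spch-1*, a sperm chromatin protein gene, had 489.8 and 215 RPM in the CSR-1a IPs and 39.0 and 22.7 RPM in their inputs. In JMC164 it had 179 and 137 RPM in the CSR-1b IPs and 151 and 66.3 RPM in their inputs. Its difference was 2.77 (SE 0.72, adjusted p = 0.0175), a call kept in 15 of 21 alternatives. *gsp-3* and *gsp-4*, sperm protein phosphatases, differed by 1.28 (SE 0.53, adjusted p = 0.107) and 1.88 (SE 0.79, adjusted p = 0.109), and *fer-1*, needed for membrane fusion in sperm, by 0.10. Without 1 library the higher count ran from 4 to 12 for the MSPs, from 1 to 13 for the small families and from 0 to 6 for spermatogenesis. The lowest count came without JMC164 input replicate 1 or IP replicate 2 for the MSPs. It came without JMC151 IP replicate 1, JMC164 input replicate 1 or either JMC164 IP for the small families, and without JMC151 IP replicate 1, JMC164 input replicate 1 or JMC164 IP replicate 2 for spermatogenesis. In the JMC151 inputs these lists were sparse, and 12 of 20 MSP features reached the minimum through the IPs and not the inputs; with the minimum asked of the inputs 2 remained, of which 1 was higher.

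Histone genes were more often higher than lower with CSR-1a. Of 59 measured histone features 27 were higher and 1 lower, with a median difference of 2.03 and enrichments of 2.76 with CSR-1a and 1.09 with CSR-1b. Among them *his-42*, an H3 gene, had 413 and 304 RPM in the CSR-1a IPs and 4.42 and 1.00 RPM in their inputs, against 17.6 and 3.65 RPM in the CSR-1b IPs and 12.2 and 2.23 RPM in theirs, a difference of 6.25 (SE 1.05, adjusted p = 0.00241). The one that was lower was *hil-5*, a linker histone gene, at 24.0 and 17.1 RPM in the CSR-1a IPs against 323 and 236 RPM in the CSR-1b IPs and a difference of -2.74 (SE 0.50, adjusted p = 0.00359). The abundant linker histone genes *his-24* and *hil-8* were depleted from both IPs, with enrichments of -1.72 and -3.0 with CSR-1a and -3.18 and -3.30 with CSR-1b. The 59 features carry 46 symbols and 13 of them have the same values as another in all 8 libraries, so they are fewer independent measurements than features. Without 1 library the higher count ran from 14 (without JMC164 input replicate 1) to 33, with 16 without JMC151 IP replicate 1. In JMC151, 20 of the 59 reached the minimum through the IPs and not the inputs, and with the minimum asked of the inputs 9 of 19 were higher and 2 lower (median 1.46).

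Of 7 heat shock protein genes 1 was higher and 1 lower, beside 11.8% and 27.9% of all antisense coding features. *hsp-3*, an endoplasmic reticulum chaperone gene, had a difference of 3.44 (SE 0.68, adjusted p = 0.00511), and *hsp-60*, the mitochondrial chaperonin gene, one of -2.15 (SE 0.65, adjusted p = 0.034). The *hsp-60* call was lost in 9 of 21 alternatives, among them 7 of the 8 that left out 1 library (adjusted p 1.49e-04 to 0.149). *hsp-90* was enriched with both isoforms, at 2.35 with CSR-1a and 2.56 with CSR-1b, and its difference was -0.21 (SE 0.70, adjusted p = 0.859).

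**Figure D3:**
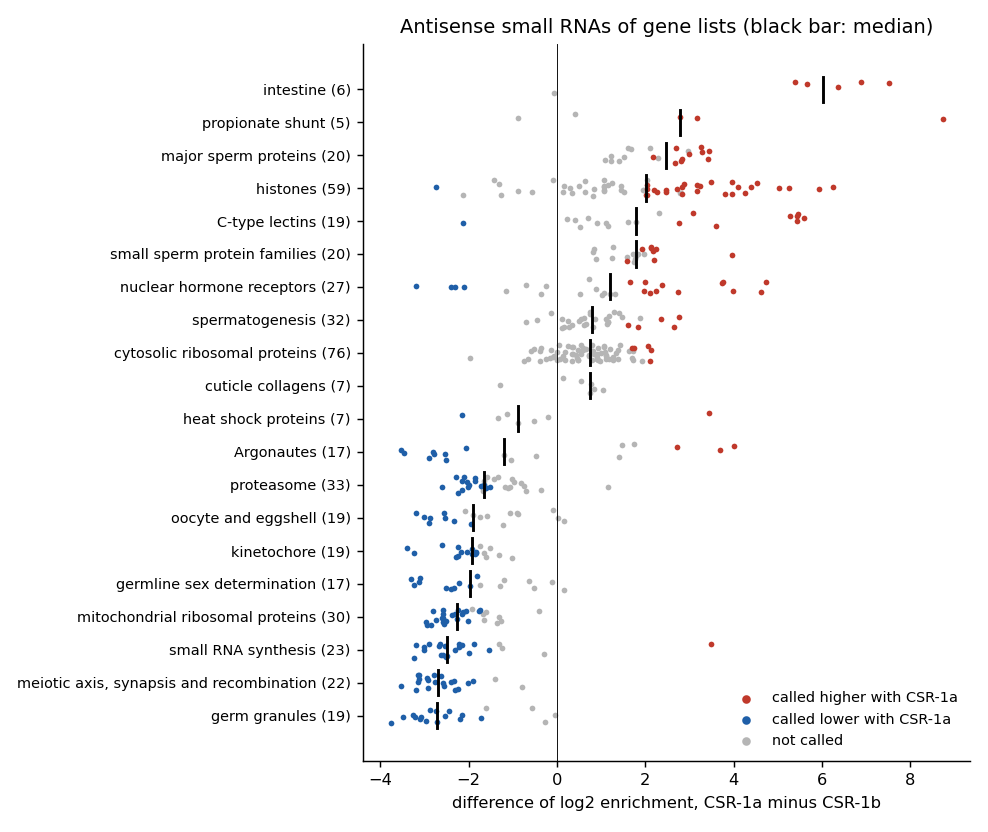
Difference of log2 enrichment, CSR-1a minus CSR-1b, of each measured antisense feature in the gene lists with at least 5 of them (number in brackets); black bars are list medians and colours show calls. Medians run from 6.02 for the intestine list to -2.73 for germ granules.

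Of 17 list counts with at least 5 calls, 15 moved by over 1.5 times without JMC164 input replicate 1, 11 without either JMC164 IP, 8 without JMC164 input replicate 2, 7 without either JMC151 IP, and 2 and 3 without JMC151 input replicates 1 and 2. The counts of the intestine list and of the C-type lectins moved by less in each of these fits, but both fell by more with the minimum asked of the inputs, to the counts given with each list.

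Genes of meiosis, oogenesis and germ granules were more often lower than higher with CSR-1a. So were antisense coding features as a whole, with 27.9% lower and 11.8% higher. The meiotic list, with genes for chromosome axes, synapsis and recombination, had 20 of 22 features lower with CSR-1a and 0 higher, with a median difference of -2.70. Together they held 571 and 508 RPM in the CSR-1a IPs, 649 and 367 RPM in their inputs, 9576 and 9480.4 RPM in the CSR-1b IPs and 1075 and 1341 RPM in theirs. *him-3*, an axis protein gene, had 31.0 and 24.3 RPM in the CSR-1a IPs and 22.3 and 13.4 RPM in their inputs, against 672 and 569 RPM in the CSR-1b IPs and 48.1 and 67.8 RPM in theirs, a difference of -2.77 (SE 0.54, adjusted p = 0.00477). *htp-1*, another axis gene, was 58.4 and 71.5 RPM in the CSR-1a IPs against 1376 and 1415 RPM in the CSR-1b IPs (-2.93), and *chk-2*, a kinase gene of meiotic chromosome pairing, was 42.4 and 61.2 RPM in the CSR-1a IPs against 1429.9 and 1479 RPM in the CSR-1b IPs (-3.54). All 22 had both CSR-1a enrichments below both CSR-1b ones, beside 48.4% of all antisense coding features. The median enrichment was 0.38 with CSR-1a and 3.02 with CSR-1b, so these features sat near their input level in the CSR-1a IPs.

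The counts of lower features in the next lists stand beside 27.9% of all antisense coding features. The oocyte and eggshell list had 8 of 19 features lower and 0 higher (median -1.91), with 7 enriched with CSR-1a and 19 with CSR-1b. *cbd-1*, an eggshell protein gene, had 39.4 and 42.2 RPM in the CSR-1a IPs against 721 and 739.9 RPM in the CSR-1b IPs, a difference of -2.88 (SE 0.58, adjusted p = 0.00579). *mex-3*, a regulator of translation in the oocyte and embryo, differed by -3.19, while *oma-1*, a regulator of oocyte maturation, differed by -0.90 (SE 0.51, adjusted p = 0.234) and the eggshell gene *cpg-2* by 0.16 (SE 0.68, adjusted p = 0.889). Kinetochore genes gave 13 of 19 lower and 0 higher (median -1.93). *cls-2*, a microtubule-binding CLASP gene, was among the most abundant, at 225 and 165 RPM in the CSR-1a IPs and 433 and 174 RPM in their inputs, against 4207 and 4564 RPM in the CSR-1b IPs and 517 and 681 RPM in theirs, a difference of -3.39 (SE 0.72, adjusted p = 0.00687). *bub-1*, a checkpoint kinase gene, differed by -2.04 (SE 0.60, adjusted p = 0.0295), a call lost in 8 of 21 alternatives, 6 of which left out 1 library (adjusted p 1.70e-05 to 0.154). Regulators of germline sex determination gave 10 of 17 lower and 0 higher (median -1.97), led by *gld-1*, a translational repressor gene at 36.8 and 22.6 RPM in the CSR-1a IPs against 594 and 653 RPM in the CSR-1b IPs, and with *fog-3*, which promotes sperm fate, at 0.16 and not called. Without JMC164 input replicate 1 the lower count was 10 for the meiotic list, 4 for oocyte and eggshell, 1 for the kinetochore and 4 for sex determination.

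Germ granules are bodies at the nuclear pores of germ cells where small RNAs are made and used. Genes for their components gave 15 of 19 features lower and 0 higher, with a median of -2.73. Together they held 994 and 799 RPM in the CSR-1a IPs, 1271 and 747 RPM in their inputs, 14456 and 14278 RPM in the CSR-1b IPs and 1710.1 and 2121 RPM in theirs. *glh-4*, a Vasa-like helicase gene, was 198 and 147 RPM in the CSR-1a IPs against 3497 and 3299.8 RPM in the CSR-1b IPs (-3.26). *znfx-1*, a helicase gene of small RNA inheritance, was 101 and 89 RPM in the CSR-1a IPs against 1786 and 1858 RPM in the CSR-1b IPs (-2.96). *mut-14*, a helicase gene of the mutator complex, was 19.9 and 31.6 RPM in the CSR-1a IPs against 1203 and 1279 RPM in the CSR-1b IPs (-3.76). Genes that make or mature small RNAs gave 19 of 23 lower and 1 higher (median -2.50). *ego-1*, a germline RNA-dependent RNA polymerase gene, had a difference of -2.50 (SE 0.61, adjusted p = 0.0131), and *tofu-4*, needed for piRNA synthesis, one of -3.25 (SE 0.61, adjusted p = 0.00399). The exception was *rrf-2*, another polymerase of that family, at 78.7 and 143 RPM in the CSR-1a IPs and 91.2 and 44.1 RPM in their inputs, against 8.02 and 9.41 RPM in the CSR-1b IPs and 75.7 and 55.2 RPM in theirs, a difference of 3.49 (SE 0.62, adjusted p = 0.00311). Without JMC164 input replicate 1 the lower count was 9 for germ granules and 8 for small RNA synthesis, and without JMC164 IP replicate 1 it was 10 for small RNA synthesis.

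Of 17 Argonaute genes measured, 3 reached the minimum in JMC151 through the IPs and not the inputs. With the minimum asked of the inputs 12 remained, with 1 higher and 8 lower. Over all 17 Argonaute genes 3 were higher and 8 lower, beside 11.8% and 27.9% of all antisense coding features. Without JMC164 input replicate 1 they were 3 higher and 2 lower, and the lower count was also 4 without JMC151 IP replicate 2 and 5 without JMC164 input replicate 2 or IP replicate 2. *alg-1*, a microRNA Argonaute gene, was higher with CSR-1a, at 40.7 and 39.2 RPM in the CSR-1a IPs and 2.30 and 2.67 RPM in their inputs, against 1.62 and 1.56 RPM in the CSR-1b IPs and 2.60 and 2.48 RPM in theirs, a difference of 4.01 (SE 0.55, adjusted p = 6.91e-04). *sago-1* and *sago-2*, Argonautes of the RNA interference response, differed by 3.69 and 2.71 and were called too. *alg-5*, a microRNA Argonaute gene of the germline, was lower, at 14.2 and 9.60 RPM in the CSR-1a IPs against 241 and 239.5 RPM in the CSR-1b IPs and a difference of -3.54 (SE 0.52, adjusted p = 0.00107). Small RNAs antisense to *csr-1* itself were lower with CSR-1a: 130.4 and 117 RPM in the CSR-1a IPs and 138 and 70.8 RPM in their inputs, against 1454 and 1375 RPM in the CSR-1b IPs and 136 and 197 RPM in theirs, a difference of -2.79 (SE 0.60, adjusted p = 0.00752). *wago-4* (-2.91, adjusted p = 0.0178), *prg-1* (-2.53, adjusted p = 0.0165) and *hrde-1* (-2.07, adjusted p = 0.0277) were lower as well. Their proteins act in inherited silencing, in the piRNA pathway and in the nucleus. These calls were kept in 17, 17 and 15 of 21 alternatives, respectively. *alg-3* and *alg-4*, genes of the spermatogenesis Argonautes, differed by 1.41 (SE 0.55, adjusted p = 0.0857) and 1.47 (SE 0.72, adjusted p = 0.171) and were not called.

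Below the transposon WBTransposon00000730 the lowest differences in the named set fell on coding genes read in antisense. *set-21*, which encodes a SET domain protein, had 14.2 and 26.4 RPM in the CSR-1a IPs and 58.2 and 40.7 RPM in their inputs, against 658 and 622 RPM in the CSR-1b IPs and 64.9 and 93.2 RPM in theirs, a difference of -4.31 (SE 0.57, adjusted p = 5.20e-04). *dsb-3*, required for meiotic double-strand breaks, differed by -3.97, *nbs-1*, of the break repair complex MRN, by -3.92, *thoc-7*, of the mRNA export complex THO, by -3.78, and *popl-1*, related to an RNase P protein, by -3.73. *C55B7.11* (-3.98), *C46A5.6* (-3.91), *T12F5.2* (-3.92), *ctf-4* (-3.76) and *har-2* (-3.73) completed that set. In all of these the CSR-1a IPs lay below their own inputs on average, with enrichments from -1.61 to -0.41, whereas the CSR-1b enrichments ran from 2.2 to 3.4. By family, the lowest medians belonged to *mcm* replication helicase genes (7 of 8 lower), *ddx* RNA helicase genes (7 of 8), *mrps* genes (12 of 13), *set* genes (13 of 17), *npp* nuclear pore genes (19 of 24) and *rpb* genes of RNA polymerase subunits (7 of 9), with 0 higher in any of these families.

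Housekeeping complexes did not move together. The proteasome, the complex that degrades ubiquitin-marked proteins, had 15 of 33 genes lower and 0 higher, beside 27.9% and 11.8% of all antisense coding features. Median enrichments were 1.42 with CSR-1a and 3.02 with CSR-1b, and 26 genes were enriched with CSR-1a and 33 with CSR-1b. *pbs-5*, a core subunit gene, had 54.3 and 42.9 RPM in the CSR-1a IPs and 26.9 and 15.4 RPM in their inputs. In JMC164 it had 601 and 437 RPM in the CSR-1b IPs and 52.0 and 55.7 RPM in their inputs. Its difference was -2.02 (SE 0.54, adjusted p = 0.0201), a call kept in 16 of 21 alternatives. *rpn-2*, a regulatory subunit gene, was 79.5 and 58.9 RPM in the CSR-1a IPs and 32.3 and 14 RPM in their inputs, against 612 and 553 RPM in the CSR-1b IPs and 65.1 and 72.4 RPM in theirs, and its difference was -1.43 (SE 0.59, adjusted p = 0.105). Mitochondrial ribosomal protein genes gave 22 of 30 lower and 0 higher (median -2.26), with 3 enriched with CSR-1a and 30 with CSR-1b. *mrps-35* differed by -2.98 (SE 0.51, adjusted p = 0.00263), whereas *mrpl-17* differed by -0.42 (SE 0.67, adjusted p = 0.697). Without JMC164 input replicate 1 the lower count was 1 for the proteasome and 6 for the mitochondrial ribosome.

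Cytosolic ribosomal protein genes were held by both isoforms. Of 76 genes 72 were enriched with CSR-1a and 73 with CSR-1b. Only 5 were higher and 0 lower (median 0.76), beside 11.8% and 27.9% of all antisense coding features. With the IPs compared directly, without the inputs, the median was -0.28, with 2 higher and 7 lower. Summed, they held 4960.4 and 2835 RPM in the CSR-1a IPs, 639.8 and 271 RPM in their inputs, 4922 and 4726 RPM in the CSR-1b IPs and 803 and 931 RPM in theirs. *rps-15* had 91.8 and 52.5 RPM in the CSR-1a IPs against 45.4 and 45.0 RPM in the CSR-1b IPs and a difference of 2.14 (SE 0.70, adjusted p = 0.0466). Its inputs held 3.84 and 0.668 RPM in JMC151 and 6.35 and 8.16 RPM in JMC164, and it lost its call in 12 of 20 alternatives (adjusted p 0.0073 to 0.359). *rpl-43* differed by 0.79 (SE 0.54, adjusted p = 0.326). Of the 76, 42 reached the minimum in JMC151 through the IPs and not the inputs, and the higher count ran from 0 to 21 without 1 library, being 0 without JMC151 IP replicate 1 or any 1 JMC164 library, 3 without JMC151 IP replicate 2 or input replicate 2, and 21 without JMC151 input replicate 1.

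Sense reads of the same genes were seldom called, and a larger share was higher where the antisense RNA was higher; the difference between the sets was not tested. Of the 743 genes higher with CSR-1a, 186 also had a measured sense feature, with a median sense difference of 1.09 and 17 higher and 1 lower. Of the 1760 genes lower with CSR-1a, 285 had one, with a median sense difference of 0.55 and 9 higher and 0 lower. Among the 3812 genes not called, 657 had one, with a median of 0.79, 18 higher and 2 lower. Sense features as a whole had a median of 0.77 with 60 of 1427 higher and 5 lower. The called sets were chosen by the sign of the antisense difference, so opposite antisense medians were fixed in advance. Sense medians of all 3 sets lay on the same side of 0.

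The same features were then read in the IPs of other strains, whose libraries neither chose the features nor made the calls. A feature was counted when IP exceeded input at least 2-fold in both numbered pairs. In JMC101, which has the *tor67* tag without the stop in exon 1, 7.2% of the features higher with CSR-1a and 95.4% of the lower ones were counted, beside 41.3% of all 8942. In GR3035, which carries the reporters *rpn-2::gfp* and *pbs-5::mcherry* and whose IP is labelled CSR-1a, the shares were 66.9% of the higher and 13.1% of the lower features beside 31.6% of all. In GR3039, with the substitution *csr-1(mg657[G91R])* and an IP labelled CSR-1a, they were 39.7% and 0.220% beside 14.5%. The labels of GR3035 and GR3039 do not put a GFP tag on CSR-1, and how these IPs were pulled down is labelled in more than one way. JMC161 drives tagged CSR-1a from the promoter of the ribosomal protein gene *rpl-28* in a *csr-1(tm892)* background; there 24% of the higher and 94.5% of the lower features were counted, beside 46.3% of all. The sets did not rank alike in these strains: the higher features led in GR3035 and GR3039, and the lower ones in JMC161.

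Other Argonautes held parts of both sets. WAGO-4 IPs (JMC223) counted 3.6% of the higher and 96.9% of the lower features beside 39.3% of all. The ALG-3 IPs (JMC205) counted 18% of the higher and 10.8% of the lower features beside 24.2% of all, and ALG-4 IPs (JMC207) 18.9% and 14.1% beside 26.1%, so neither set reached the share of all features there. WAGO-10 IPs (JMC248) counted 11.2% and 0.936% beside 8.76%. The genotype label of JMC248 puts no GFP on WAGO-10 either, although its IP is labelled as a GFP pull-down. In the sperm lists, called or not, all 20 MSP features and all 20 of the small sperm protein families were counted with ALG-3 and with ALG-4. Their MSP medians were 4.21 and 4.52, and 27 of 32 spermatogenesis features were counted with each. Other lists were counted in part with ALG-3, with 3 of 5 propionate shunt genes, 8 of 19 C-type lectins and 25 of 33 proteasome genes. With GR3035 18 of the 20 MSP features were counted and with WAGO-4 0. Of the 6 intestinal genes, 0 were counted with ALG-3 or ALG-4 and 6 in each of GR3035 and GR3039. Among 59 histone features 41 were counted in GR3035, 28 in JMC101, 25 with WAGO-4 and 3 with ALG-3 or ALG-4. The meiotic list was counted in full in JMC101 (22 of 22) and nearly so with WAGO-4 (21 of 22), against 3 of 22 in GR3035. Cytosolic ribosomal protein genes were counted widely, from 55 of 76 in GR3039 and 62 with ALG-3 to 74 in JMC161, except in WAGO-10 IPs, with 13.

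**Figure D4:**
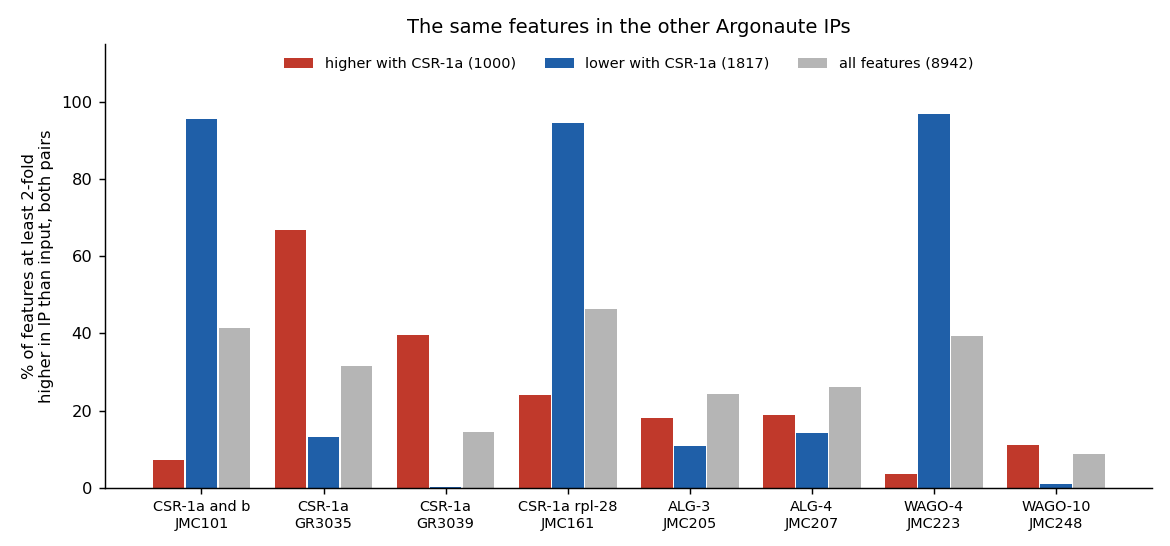
Share of features at least 2-fold higher in IP than input in both pairs of each other strain (y axis, %), for the 1000 features higher with CSR-1a, the 1817 lower ones and all 8942. The lower set exceeds 94% in JMC101, JMC161 and WAGO-4 IPs, and the higher set leads in the GR3035, GR3039 and WAGO-10 IPs.

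The mRNA of JMC164, which lacks CSR-1a, was compared with that of N2 at each temperature by edgeR's quasi-likelihood test at an adjusted p under 0.05. The mRNA titles name the allele *tor159* where the genotype names *mg660*. JMC164 replicate 3 at 20 °C stood apart: its mean correlation with its group was 0.917 across genes, where the other libraries had 0.950 to 0.991. *csr-1* mRNA itself had 147, 234 and 42.4 CPM (counts scaled to a library total of 1000000) in JMC164 and 141, 162 and 242 in N2 at 20 °C, and a stop codon need not lower it. Germline markers were low in that library as well. The 31 MSP genes summed to 5155, 5446 and 1338 CPM in the JMC164 libraries at 20 °C and to 2935, 2614 and 2706 in the N2 libraries. The 30 oocyte and eggshell genes summed to 1376, 1606 and 310.4 in JMC164 and 507, 551 and 1259 in N2. N2 replicate 3 thus lay above the other N2 libraries in that list. It did so for germ granule genes too, whose sums in N2 were 557, 565 and 1120, while its MSP sum lay between theirs.

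At 20 °C few genes passed. Of the genes whose antisense RNAs were higher with CSR-1a, 16 of 714 tested were higher in the mutant and 22 lower. Of those whose antisense RNAs were lower with CSR-1a, 17 of 1755 were higher in the mutant and 14 lower, where 1.95% of all genes were higher and 5.16% lower. Without replicate 3 of JMC164 the counts were 124 (17.4%) higher and 225 (31.5%) lower in the mutant for the first set, and 613 (34.9%) higher and 64 (3.64%) lower for the second, beside 20.2% and 18.7% of all genes. The counts at 20 °C rest on whether that library is kept, and without it the median log2 difference was -0.25 for the first set and 0.32 for the second. All N2 libraries, replicate 3 among them, were kept in both sets of counts.

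At 25 °C, genes with small RNA higher with CSR-1a were more often higher than lower in the mutant, and those with small RNA lower with CSR-1a more often lower. Of the 714 genes whose antisense RNAs were higher with CSR-1a, 171 (23.9%) were higher in the mutant and 42 (5.88%) lower, with a median log2 difference of 0.27. Of the 1755 genes whose antisense RNAs were lower with CSR-1a, 60 (3.42%) were higher in the mutant and 363 (20.7%) lower, with a median of -0.34, beside 17.4% and 11.2% of all genes and a median of 0.05. The 3536 uncalled antisense genes gave 224 (6.33%) higher and 530 (15%) lower. Leaving out 1 library moved these counts: the 171 ran from 92 (without JMC164 replicate 2 at 25 °C) to 285 (without JMC164 replicate 3 at 20 °C), with 101 and 107 without N2 replicates 1 and 3 at 25 °C. Without that library 26.1% of all genes were higher in the mutant and 23.7% lower. The 363 ran from 118 (without JMC164 replicate 3 at 25 °C) to 784 (without JMC164 replicate 3 at 20 °C), with 130 without JMC164 replicate 2 and 141 and 150 without N2 replicates 1 and 3 at 25 °C.

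Germline markers moved between the strains at 25 °C too. The MSP genes summed to 1797, 1382 and 1818 CPM in JMC164 and 3039.6, 2901 and 2881 in N2. The oocyte and eggshell genes summed to 6632, 3987 and 4190.3 in JMC164 and 10010.4, 7109.9 and 10885 in N2. The strains did not overlap in either list. Nor did they in the sums of cuticle collagens and the proteasome, among others, while the kinetochore sums overlapped. The 12 intestinal genes summed to 13450.3, 17219 and 15542 in JMC164 and 9070.1, 8689.8 and 8980.0 in N2. The part of these markers in the counts above was not tested.

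**Figure D5:**
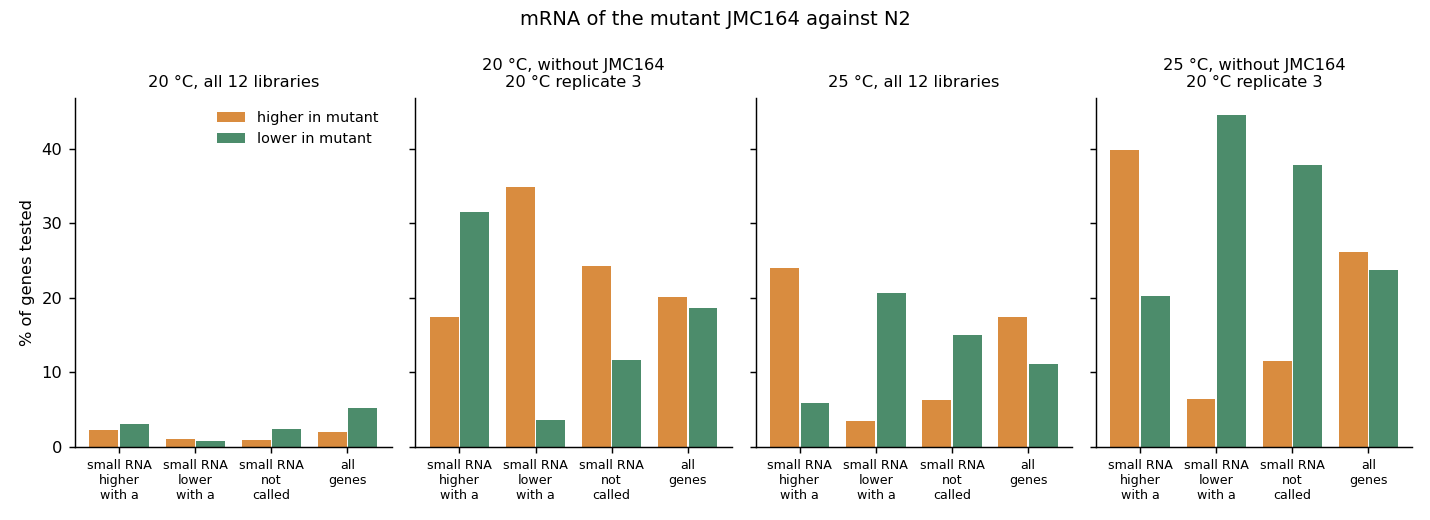
Share of genes (y axis, %) higher or lower in the mutant JMC164 than in N2 at 20 °C and 25 °C, split by the call of their antisense small RNAs, with all 12 libraries and without JMC164 replicate 3 at 20 °C. At 25 °C 23.9% of the genes with small RNA higher with CSR-1a were higher in the mutant, and 20.7% of those with small RNA lower with CSR-1a were lower.

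Among the lists, 30 of 55 histone genes tested were higher in the mutant at 25 °C and 3 lower (median 0.91), while 21 of 33 proteasome genes were lower and 0 higher (median -0.56). Of all genes tested 17.4% were higher and 11.2% lower. How these list counts move without 1 library is not given here. The summed level of 81 listed histone genes at 25 °C ran the other way, at 1481, 1432 and 1269 CPM in JMC164 and 1599.7, 1492 and 1599 in N2. The highest JMC164 sum lay just below the lowest N2 sum. *his-42* had 4.19, 5.75 and 14.2 CPM in JMC164 and 1.36, 1.27 and 1.21 in N2, a log2 difference of 2.64 (adjusted p = 0.00149). Copies of histone genes may share reads here as well. In the proteasome *rpn-2* had 168, 128 and 118 CPM in JMC164 and 308, 187 and 309.7 in N2, a difference of -0.96 (adjusted p = 0.0146), and *pbs-5* one of -0.42 (adjusted p = 0.0583). *acdh-1* had 905, 1078 and 821 CPM in JMC164 and 1342, 1441 and 1319 in N2, a difference of -0.55 (adjusted p = 0.0711). *K06B9.6* was at 4.50, 4.38 and 4.86 in JMC164 and 2.13, 2.45 and 1.85 in N2 and passed at 1.09 (adjusted p = 0.00924), *ifc-2* passed at 0.55 (adjusted p = 0.0412), and *sams-1* gave 0.06 (adjusted p = 0.739) at 25 °C and 0.66 (adjusted p = 0.0102) at 20 °C. Among genes with small RNA lower with CSR-1a, *chk-2* passed at -1.42 (adjusted p = 0.0474) at 25 °C, while *csr-1* at -1.19 (adjusted p = 0.0657), *gld-1* at -1.40 (adjusted p = 0.191) and *him-3* at -0.24 (adjusted p = 0.672) did not. MSP genes, of which 10 of 20 had small RNAs called higher with CSR-1a, gave 5 of 20 lower in the mutant at 25 °C and 0 higher, with a median of -0.74. This stands beside the same shares of all genes.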

How the data were processed

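Small RNA tables were deposited by the authors as RPM per feature; each column sums to 1000000 once 0.01 per value is taken off, read from the values, with no scaling between libraries found. mRNA tables were deposited as raw counts per gene. cutadapt, STAR, FastQC and DESeq2 are named in the submitters' processing notes; which step each served is not stated there. The genome build is not given in the sources used here, and coordinates and sequences are left out. Reads listed with no feature (2.82% to 9.94% of a library here) counted in the totals and were left out of tests. Depth was estimated by taking the commonest low value of coding features as 1 read; in the 8 libraries 66.9% to 89.3% of values were then within 0.02 of a whole read, so reads are estimates. No molecular identifiers are described, so depth speaks to counting error only.

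Features with at least 10 estimated reads in at least 2 of the 8 libraries were fitted in limma 3.58.1 (R 4.3.3) on log2(RPM + 1) with the spread fitted against mean level, as 4 groups that share one spread, and p-values were adjusted over all 20347. A fold on this scale understates the change of low features. mRNA counts were tested in edgeR 4.0.16 after its low-count filter (12 libraries, 4 groups). A GFP row of the mRNA tables was left out of tests.

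The members, gene lists and named genes were chosen with earlier results of these data known. Named are the 12 highest and 12 lowest called features with at least 3 reads in every input and no overlap between the strains' enrichments, the extremes and most abundant members of each list, the extremes of each class, the extreme gene families, and 16 fixed genes; *adr-2*, one of these, was below the minimum in JMC151 and is no member. Other list members, and *WBGene* features without a symbol, are given by name where a list count rests on them, chosen after their values were seen. Alternatives were other scalings, pseudocounts, filters, tools, a replicate block, thinned JMC164 reads, the IPs without the inputs and each library left out. 3 labelled inputs of another strain, with no column in the tables used, are not analysed here; 0 columns of other samples were found.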

Additional observations from a re-analysis of the deposited data

Results flagged for a closer look

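The mRNA tables hold a row for GFP that no comparison used. It counted 172 to 772 reads in the 6 libraries of JMC164, which carries the GFP tag, and 0 to 1 reads in the 6 libraries of N2, which does not. The lowest JMC164 library, at 172, lies above every N2 library. No group of the small RNA comparison was large enough to look for a single outlying library in this way.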

How the results depend on the processing

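Across 21 alternatives no feature was called in the direction opposite to its main call, and of 91 named features called, 64 kept their call in every alternative run on them and none changed sign. Higher features numbered 666 and lower ones 1057 without the read filter. With the minimum asked of the inputs, 481 were higher of a smaller set of features; with the IPs compared without inputs 2513 were higher and 3219 lower. Leaving out 1 library gave 561 to 1319 higher and 548 to 2625 lower features, and a gap between IP and input in the antisense coding share of JMC151 from 4.78 to 17.3 percentage points, with 11 from all libraries. The replicate block gave 1548 higher and 2350 lower features; the 2 numbers of a strain deviated together at r = 0.245 in JMC151 and 0.487 in JMC164, but nothing says that a number marks more than a name. Apart from filters and left-out libraries, which change the features or libraries used, the cause was not tested.

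For mRNA at 20 °C, among genes with small RNA higher with CSR-1a, DESeq2 called 28 higher and 35 lower in the mutant, and leaving out 1 library gave 7 to 124 and 8 to 225. Among genes with small RNA lower with CSR-1a, DESeq2 called 89 higher, the replicate block 8 higher, and leaving out 1 library gave 2 to 613 higher and 3 to 64 lower. At 25 °C, leaving out 1 library gave 92 to 285 higher and 25 to 145 lower among the first genes, and 21 to 112 higher and 118 to 784 lower among the second; DESeq2 called 81 of the first and 550 of the second lower. Numbers did not pair the mRNA libraries.

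Median log2 enrichments in other IPs kept their sign. With a pseudocount of 5 RPM the higher features had 1.38 (GR3035), 0.59 (GR3039), -0.40 (JMC101), 0.21 (JMC161), -0.083 (WAGO-10), -0.42 (WAGO-4), -0.30 (ALG-3) and -0.36 (ALG-4), and the lower features 2.84 (JMC101), 3.02 (JMC161), -0.40 (ALG-3), -0.44 (ALG-4) and 3.52 (WAGO-4). From number 1 alone the higher features had 0.92 (GR3039), -0.98 (WAGO-4), -0.10 (WAGO-10), -0.78 (ALG-3) and -0.90 (ALG-4), and the lower ones -0.63 (ALG-3) and -0.69 (ALG-4). From number 2 alone the higher features had -0.88 (JMC101), 0.36 (JMC161) and -0.77 (ALG-3). Depth limits the JMC151 side: of the 8942 features 1899 reached the minimum there through the IPs and not the inputs.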
